A study of Bos taurus with 22 samples.

Results

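The miR-30 family of bovine plasma was examined through 6 mature miRNAs, bta-miR-30a-5p, bta-miR-30b-5p, bta-miR-30c, bta-miR-30d, bta-miR-30e-5p and bta-miR-30f (named below without the prefix for cattle), taken by name from a table of read counts for 844 miRNAs (611 bovine miRNAs and 233 human homologues). Plasma came from 11 Holstein-Friesian heifers of 14 to 17 months that had never been inseminated before. Oestrus was synchronised in all of them, insemination was artificial and done at oestrus, and days were counted from insemination. Each heifer was sampled on Day 0, as the non-pregnant baseline, and on Day 60 of pregnancy, which gave 22 small RNA libraries, 11 per day. No non-pregnant samples from Day 60 were analysed here. Pregnancy, the passage of time between samplings and the synchronised oestrus of Day 0 therefore cannot be told apart. The 2 libraries of a heifer were compared with each other, and plasma pools RNA released by many tissues and cells, so that fewer releasing cells and less RNA per cell cannot be told apart.

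miRNAs are short RNAs that guide Argonaute proteins to messenger RNAs, mostly through the seed, a run of bases near their 5′ end. The miR-30 members have a common seed and differ towards the 3′ end, so they can bind overlapping sets of messenger RNAs. In human and mouse cells the family is known for restraining autophagy, through BECN1, and the epithelial-to-mesenchymal transition, through SNAI1, and for promoting fat cell differentiation and vessel sprouting, the last through the Notch ligand DLL4. Family members are found in many tissues, and in human miR-30d is also known from fluid of the uterus. Because several mature sequences of the family are near-identical and the authors' read assignment allowed 1 mismatch, reads may have been exchanged between members, and each level below carries that uncertainty.

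The 6 members lie in 3 pairs on the bosTau4 assembly, by the positions in the deposited table. miR-30d (chromosome 14, 6473527 to 6473550, plus strand) and miR-30b-5p (chromosome 14, 6477882 to 6477903, plus strand) are 4331 bases apart. miR-30c (chromosome 3, 112437487 to 112437509, minus strand) and miR-30e-5p (chromosome 3, 112440616 to 112440639, minus strand) are 3106 bases apart. In the RefSeq annotation of a later assembly, ARS-UCD2.0, the genes of this pair, MIR30C and MIR30E, both lie within NFYC, which encodes a subunit of the CCAAT-binding factor NF-Y. There MIR30A lies within LOC132346186, also protein-coding, and MIR30B, MIR30D and MIR30F lie within no other gene. miR-30f (chromosome 9, 9851489 to 9851512, minus strand) and miR-30a-5p (chromosome 9, 9888836 to 9888859, minus strand) are 37323 bases apart. No other bovine miRNA of the table starts within 50000 bases of a member, apart from miR-30b-3p, the opposite arm of the miR-30b hairpin.

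The Day 0 libraries held 1912290 to 6839128 miRNA reads and the Day 60 libraries 304117 to 12775451. Levels are given as RPMM, the reads of a miRNA in every 1000000 miRNA reads of its library. The Day 60 library of heifer 17 stood apart. It was the shallowest, and it held 22843 RPMM of the hepatocyte miRNA miR-122, against 5.17 to 151 RPMM in the other 21 libraries. It also held the highest miR-30b-5p, miR-30c and miR-30f of all 22 libraries, so results are given without heifer 17 where it matters. Of the other cell markers, the summed level of 3 red cell miRNAs ran from 66967 to 326751 RPMM on Day 0 and from 121309 to 359251 RPMM on Day 60. Most of this sum was miR-486, and it was higher on Day 60 in 6 of 11 heifers. The other red cell miRNAs, miR-451 and miR-144, were each higher in 8 of 11 on RPMM. The 3 miRNAs listed for leukocytes were miR-150, miR-142-5p and miR-155. Their summed level, mostly miR-142-5p, was higher in 9 of 11 heifers (30001 to 43274 RPMM on Day 0, 31737 to 65529 RPMM on Day 60). The 3 listed for platelets and endothelium were miR-223, miR-126-5p and miR-126-3p. Their summed level, mostly miR-126-5p, was higher in 2 of 11 heifers (6234 to 16789 RPMM, then 3316 to 16506 RPMM). The mean of miR-223 was 1803 RPMM on Day 0 and 1457 RPMM on Day 60. None of the 10 markers was at 0 in any library.

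The miR-30 reads of plasma were mainly those of miR-30d and miR-30e-5p. These 2 members made up 78.0 ± 4.10% (SD, n = 11) of the family reads on Day 0 and 80.1 ± 3.67% on Day 60. The whole family took 4.24 ± 0.853% (SD, n = 11) of all miRNA reads on Day 0, from 3.03% in heifer 11 to 5.79% in heifer 32. On Day 60 it took 4.83 ± 1.06%, from 2.97% in heifer 31 to 6.48% in heifer 11. The share was higher on Day 60 in 7 of 11 heifers, with a mean within-heifer difference of 0.587 ± 1.80 percentage points (SD, n = 11), so the spread between heifers was wider than the difference. As a sum over chosen members this share was not tested. Within the family, the mean share of miR-30e-5p was 37.2% on Day 0 and 42.1% on Day 60 (higher in 8 of 11 heifers), that of miR-30d 40.8% and 38.1% (higher in 5), and that of miR-30a-5p 17.2% and 13.9% (higher in 3).

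**Figure D1:**
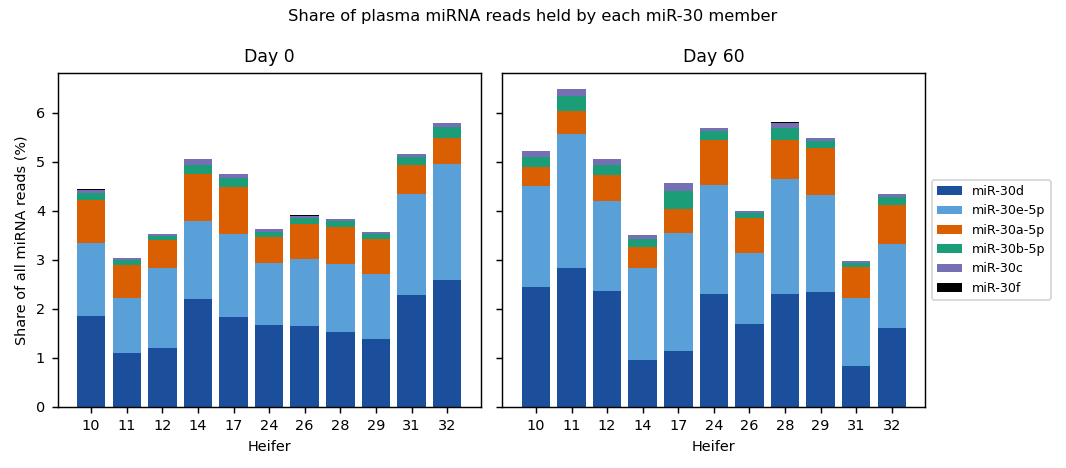
Share of all plasma miRNA reads (%, vertical axis) held by each miR-30 member in every heifer (horizontal axis), on Day 0 (left) and Day 60 (right), 1 bar per library. Bars add up to 2.97% to 6.48%, miR-30d and miR-30e-5p fill most of each bar, and miR-30f is too low to be seen.

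Over the 22 libraries the order of mean levels was miR-30d (18190 RPMM), miR-30e-5p (17891 RPMM), miR-30a-5p (6808 RPMM), miR-30b-5p (1707 RPMM), miR-30c (734 RPMM) and miR-30f (30.6 RPMM). These ranked 15, 17, 29, 51, 78 and 201 among the 844 miRNAs of the table. From miR-30e-5p downwards, each member was above the next in all 11 libraries of both days. A two-sided exact sign-flip test gave p = 0.00098 for every such step, the smallest it can give (adjusted p = 0.00122 over 10 comparisons). The order tested was that of the mean levels in these same libraries, so the test gives it no independent support. The first step did not hold up. miR-30d was above miR-30e-5p in 9 of 11 libraries on Day 0 (the same exact test, p = 0.101, adjusted p = 0.112) and in 6 of 11 on Day 60 (exact p = 0.316, adjusted p = 0.316), and in both libraries of a heifer in 4 of 11 heifers. The opposite arm miR-30b-3p was close to absent, with 132 reads in all, 0 to 16 per library, which was 0.0697% of the reads of both miR-30b arms. It was too low to be tested.

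Differential expression between the days was computed for the 195 miRNAs that exceeded 25 RPMM in over 8 of the 11 libraries of at least 1 day, among them all 6 members. The test was edgeR's quasi-likelihood test on the counts with TMM normalisation and heifer as a block, and FDR is its Benjamini-Hochberg adjusted p with a threshold of 0.05. The SE of an edgeR estimate was derived as its absolute log2 fold-change over the square root of the test's F statistic. Of the 6 members, miR-30b-5p and miR-30e-5p were higher on Day 60 at the FDR threshold, and 0 were lower. Over all tested miRNAs 17.4% were higher and 17.9% were lower, 35.4% in all. At an unadjusted p under 0.05, 3 members were higher and 0 lower, against 47.2% of tested miRNAs in either direction. The median log2 fold-change was 0.40 for the 6 members and -0.06 for the 195 tested miRNAs.

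miR-30e-5p, whose gene lies close to that of miR-30c, had the smallest p of the family. Its level was 11156 RPMM at the lowest, 14941 at the median and 23637 at the highest on Day 0, and 13881, 19735 and 27498 RPMM on Day 60. The days overlapped, and 2 Day 60 libraries were above the highest Day 0 library. The mean went from 15748 ± 3646 to 20033 ± 4127 RPMM (SD, n = 11), and in edgeR the level rose 1.46-fold (0.54 ± 0.15 SE in log2, FDR 0.0170 in edgeR), with 9 of 11 heifers higher. Without heifer 17 the log2 fold-change was 0.52 (edgeR FDR 0.0313). Its CV over all libraries, 24.5%, was also the lowest of the family, with rank 20 of 195 from the smallest, against a median CV of 40.04% for tested miRNAs.

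miR-30b-5p, known in human cells as a regulator of DLL4, had the largest log2 fold-change of the family. It was at 943 RPMM at the lowest, 1319 at the median and 2265 at the highest on Day 0, and at 819, 1859 and 3758 RPMM on Day 60. The highest Day 60 value belonged to heifer 17, and the next was 3092 RPMM. The mean went from 1411 ± 430 to 2002 ± 848 RPMM (SD, n = 11), and in edgeR the level rose 1.56-fold (0.64 ± 0.21 SE in log2, FDR 0.0301 in edgeR). On TMM-normalised reads 9 of 11 heifers were higher, and on RPMM 7 of 11. Without heifer 17 the log2 fold-change of miR-30b-5p was 0.57 (edgeR FDR 0.0464). Its call was lost without heifer 10, 11, 12, 28 or 29 (edgeR FDR 0.0608, 0.0680, 0.0577, 0.0512 and 0.0600).

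miR-30c, which lowers lipoprotein secretion from the liver in mice, had a similar log2 fold-change with a larger error. It was at 299 RPMM at the lowest, 569 at the median and 1192 at the highest on Day 0, and at 306, 739 and 1503 RPMM on Day 60. The Day 60 libraries formed a wide range, with 4 above the highest Day 0 library. Among these was the library of heifer 17, which held the highest value, and the next was 1307 RPMM. The mean went from 609 ± 264 to 859 ± 428 RPMM (SD, n = 11), and the edgeR estimate of 0.61 ± 0.27 (SE) in log2 missed the threshold (p = 0.0380, FDR 0.0842), with 6 of 11 heifers higher. In heifer 12 the log2 change was 2.29. The log2 fold-change was 0.45 without heifer 12 (edgeR FDR 0.156) and 0.54 without heifer 17 (edgeR FDR 0.118). miR-30c passed with DESeq2 (adjusted p = 0.0142), in edgeR with scaling to miR-128 (FDR 0.0490), without the heifer block (FDR 0.0425) and without heifer 32 (FDR 0.0487).

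**Figure D2:**
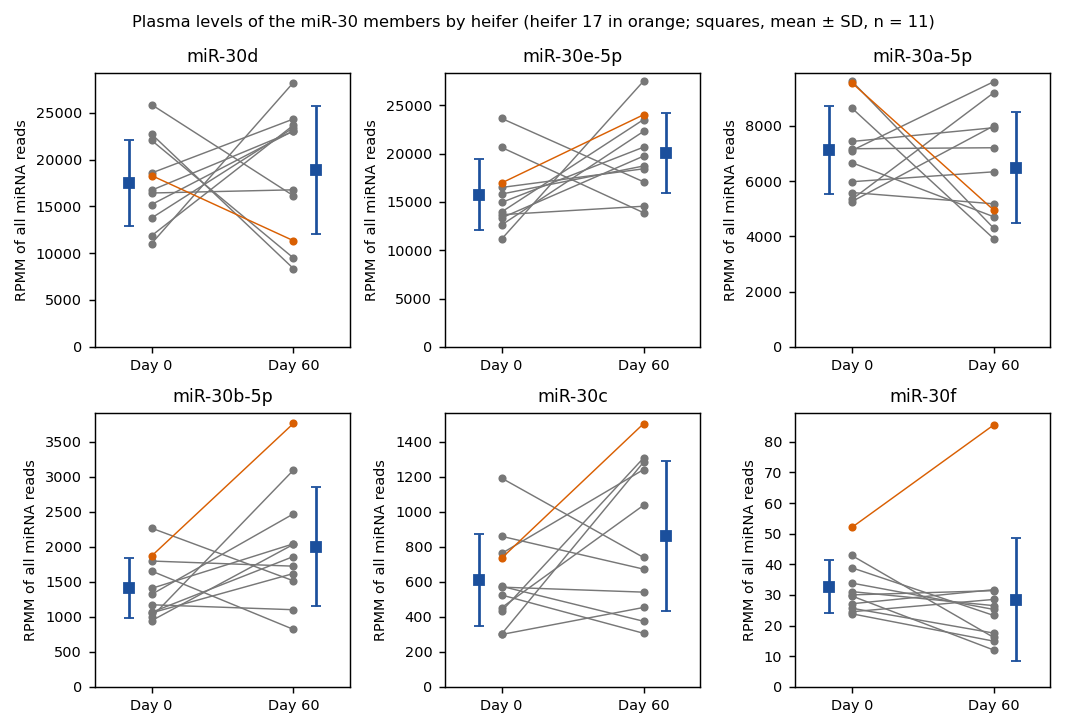
Level of each miR-30 member (RPMM of all miRNA reads, vertical axis from 0) on Day 0 and Day 60, with 1 line per heifer, heifer 17 in orange, and squares with bars for the mean ± SD of 11 libraries. Lines of miR-30e-5p mostly rise, those of miR-30a-5p and miR-30d cross, and the Day 60 library of heifer 17 lies alone at the top for miR-30f, at 85.5 RPMM.

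miR-30d, the member with the highest mean over both days, was higher in some heifers and lower in others. It was at 11021 RPMM at the lowest, 16718 at the median and 25864 at the highest on Day 0, and at 8358, 23004 and 28220 RPMM on Day 60. Its mean was 17495 ± 4633 RPMM on Day 0 and 18885 ± 6800 RPMM on Day 60 (SD, n = 11), the latter under the 20033 RPMM of miR-30e-5p. On TMM-normalised reads it was higher on Day 60 in 7 heifers, by up to 1.20 on the log2 scale, and lower in heifers 14, 17, 31 and 32, by up to 1.03. The edgeR estimate of 0.25 ± 0.23 (SE) in log2 missed the threshold (FDR 0.415), and its interval of 2 SE allows a fold-change from 0.861 to 1.64. It was 0.14, 0.15 and 0.13 without heifers 11, 12 and 29 and 0.37 without heifer 31, 0.06 when scaled by library totals and 0.09 by the upper quartile, and it did not pass in any of these fits.

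miR-30a-5p, which targets BECN1 in human cells, was near the same level on both days. It was at 5260 RPMM at the lowest, 7111 at the median and 9626 at the highest on Day 0, and at 3921, 6340 and 9604 RPMM on Day 60. The Day 60 libraries reached lower, with 5 of them under the lowest Day 0 library. The edgeR estimate was 0.02 ± 0.19 (SE) in log2 (FDR 0.927), with 7 of 11 heifers higher on TMM-normalised reads, and its interval of 2 SE runs from 0.780-fold to 1.33-fold. With library totals as scaling its sign turned, to -0.17.

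miR-30f, the least abundant member, was the only one with a negative log2 fold-change in edgeR with TMM. It was at 23.8 RPMM at the lowest, 30.004 at the median and 52.0 at the highest on Day 0, and at 12.0, 25.3 and 85.5 RPMM on Day 60. The highest value, in heifer 17, rests on 26 reads (95% Wilson interval 58.3 to 125 RPMM, counting error only), and the next on Day 60 was 31.7 RPMM. The edgeR estimate was -0.19 ± 0.18 (SE) in log2 (FDR 0.421), with 7 of 11 heifers lower, and -0.29 without heifer 17 (edgeR FDR 0.160). The CV of miR-30f on Day 60 was 70.7% with heifer 17 and 31.4% without it, against 26.7% on Day 0.

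Members differed in the sign of their Day 60 minus Day 0 difference within the same animal. On TMM-normalised reads miR-30b-5p and miR-30e-5p had the same sign in all 11 heifers, higher in 9 and lower in heifers 31 and 32. miR-30a-5p went against both in 6 heifers. In heifers 10, 11, 14 and 17 it was lower on Day 60 by 0.66 to 0.76 on the log2 scale while both others were higher, and in heifers 31 and 32 it was higher by 0.50 and 0.75 while both were lower. miR-30f went against miR-30b-5p in 7 heifers. Only heifer 12 had all 6 members higher, and heifer 31 had 5 lower. Signs on this scale depend on TMM normalisation. On RPMM miR-30b-5p was lower on Day 60 in heifer 14 (1795, then 1721) and heifer 26 (1170, then 1100). miR-30e-5p was higher on RPMM in both, so the match did not hold on that scale.

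**Figure D3:**
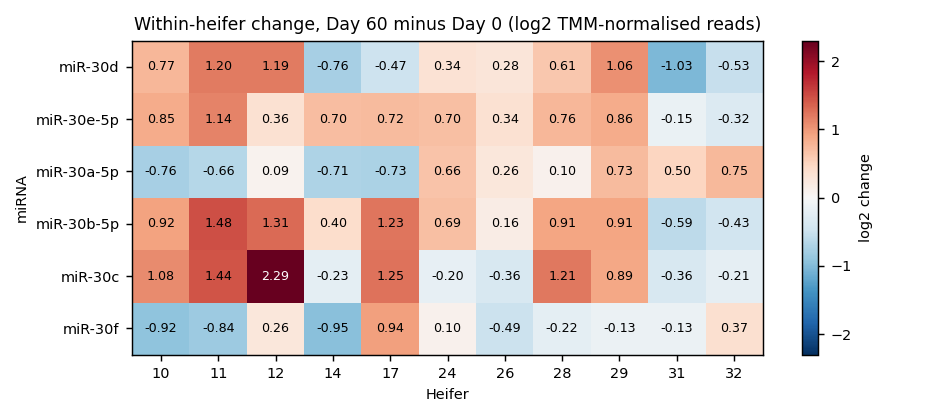
Within-heifer change of each miR-30 member (rows) in each heifer (columns), as Day 60 minus Day 0 in log2 TMM-normalised reads, with red for higher and blue for lower on Day 60. miR-30b-5p and miR-30e-5p match in sign in all 11 columns, while miR-30a-5p is opposite to them in heifers 10, 11, 14, 17, 31 and 32.

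Ratios between members do not depend on how libraries are scaled, so the change of each of the 15 ratios was tested within heifers by an exact sign-flip test, two-sided, with p adjusted over the 18915 pairs of tested miRNAs. None of the 15 ratios passed (0 of 15, against 28.1% of all pairs), and 4 of the 15 had an unadjusted p under 0.05, against 47.1% of all pairs. The closest was miR-30b-5p to its neighbour miR-30d, higher on Day 60 in 9 of 11 heifers by 0.39 (SE 0.17) in log2 (exact sign-flip test p = 0.0147, adjusted p = 0.0502), which went to 0.26 without heifer 17. The other 3 were the ratios of miR-30b-5p, miR-30c and miR-30e-5p to miR-30f, higher by 0.81 (SE 0.28), 0.80 (SE 0.31) and 0.72 (SE 0.26) in log2 (exact sign-flip test p = 0.0166, 0.0322 and 0.0234, adjusted p = 0.0534, 0.0785 and 0.0642). miR-30e-5p exceeded miR-30a-5p 2.21-fold on Day 0 and 3.17-fold on Day 60 in the geometric mean, with the ratio of miR-30a-5p to miR-30e-5p lower in 9 of 11 heifers (log2 change -0.52, SE 0.29, exact sign-flip test p = 0.0986, adjusted p = 0.175). The 15 tests therefore did not separate the higher members from the others beyond the spread between heifers.

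Likeness of 2 miRNAs was described by the SD of their log2 read ratio over the 22 libraries, which is small where both move together and also where both are steady. Its median was 0.59 over the 15 pairs of members and 0.79 over all pairs of tested miRNAs. The most alike members were miR-30b-5p and miR-30e-5p (0.31), from different chromosomes, followed by miR-30b-5p and miR-30c (0.37) and miR-30d and miR-30e-5p (0.43). The 3 pairs of genomic neighbours had a median SD of 0.57, against 0.69 for the other 12 pairs. Their SD was 0.52 for miR-30b-5p and miR-30d, 0.57 for miR-30a-5p and miR-30f, and 0.58 for miR-30c and miR-30e-5p, though miR-30f was the closest member to miR-30a-5p and the reverse. The Day 60 library of heifer 17 lay apart, with a log2 ratio of miR-30a-5p to miR-30f of 5.83 (Day 60 median 8.22). Its ratio of miR-30b-5p to miR-30d was -1.59 (Day 60 median -3.41). Some pairs that are not neighbours shared this, such as miR-30d to miR-30f (7.02, Day 60 median 9.50). SDs without heifer 17 were not computed, so the likeness of neighbours cannot be judged apart from that library. The largest SD of the family, 0.93, was that of miR-30a-5p and miR-30c.

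Outside the family each member had other companions. The 3 miRNAs most like miR-30e-5p were miR-186 (SD of the log2 ratio 0.15), miR-301a (0.22) and miR-769 (0.23). Those of miR-30d were miR-421 (0.20), miR-191 (0.20) and miR-301b (0.23), and those of miR-30b-5p were miR-374a (0.28), miR-28 (0.34) and miR-20a (0.34). For miR-30c they were let-7d (0.30), miR-6119-5p (0.37) and miR-98 (0.39), and for miR-30a-5p miR-148a (0.31), miR-22-3p (0.37) and miR-130a (0.37). miR-30f was nearest to miR-193a-3p (0.31), miR-194 (0.44) and miR-494 (0.46). Of these 18 miRNAs, 7 were also among the 3 nearest of their member by Spearman correlation, and none of the 3 of miR-30e-5p was. Because likeness was measured over the libraries of both days, the Day 60 estimates of these miRNAs follow in part from how they were chosen and were not compared.

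The calls of miR-30b-5p and miR-30e-5p moved with the scaling. Both had a positive log2 fold-change under every scaling, but with library totals neither passed (0.45 and 0.35, edgeR FDR 0.134 and 0.116), and with the upper quartile miR-30e-5p alone did (0.48 and 0.38, edgeR FDR 0.0531 and 0.0445). The median of all tested miRNAs was itself -0.25 with library totals and -0.22 under upper-quartile scaling. Relative to that median, miR-30b-5p was higher by 0.70 and miR-30e-5p by 0.60 with library totals, against 0.70 and 0.61 with TMM. A change of scaling shifts all miRNAs by nearly the same amount. This distance could therefore hardly differ between scalings, and it does not bear on whether the calls hold. The study normalised its RT-qPCR to miR-128 together with a spiked-in miRNA. It chose miR-128 for its low variation in these same libraries, so scaling to miR-128 is not independent of these data. With TMM, miR-128 had an edgeR estimate of -0.09 ± 0.14 (SE) in log2 (FDR 0.655). On RPMM it was higher on Day 60 in 1 of 11 heifers, with 9 of 11 Day 60 libraries below the lowest Day 0 library (means 2785 and 2336 RPMM). With scaling to its reads both members passed (0.72 and 0.63, edgeR FDR 0.0203 and 0.0183).

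**Figure D4:**
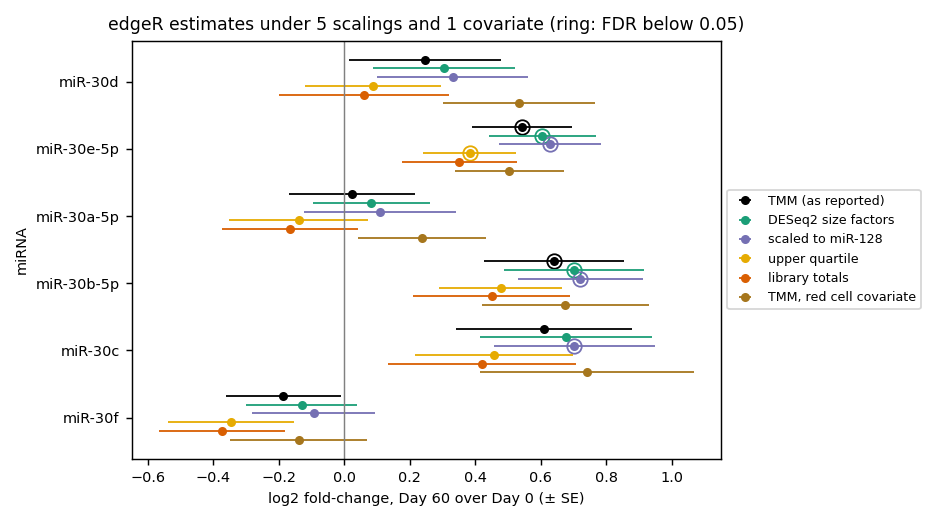
edgeR log2 fold-change of each miR-30 member, Day 60 over Day 0 (horizontal axis, points with bars for ± SE), under 5 scalings and with a red cell covariate, with rings where FDR is below 0.05. miR-30b-5p and miR-30e-5p lie above 0 under each, from 0.35 to 0.72, while miR-30a-5p lies on both sides of 0.

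Of the 3 red cell miRNAs, which enter plasma when red cells break, 1 passed the test. miR-451 was higher on Day 60 in edgeR, by 0.79 ± 0.29 (SE) in log2 (FDR 0.0425, 8 of 11 heifers). miR-144 and miR-486 missed the threshold (0.46 and 0.43, edgeR FDR 0.171 and 0.236). With the mean log2 level of these 3 miRNAs as a covariate, miR-30b-5p and miR-30e-5p had log2 fold-changes of 0.68 and 0.50 and did not pass (edgeR FDR 0.0913 and 0.0741), in a fit in which 7 of 195 miRNAs passed. In the same fit miR-30d was at 0.53, miR-30a-5p at 0.24, miR-30c at 0.74 and miR-30f at -0.14 in log2 (edgeR FDR 0.138, 0.398, 0.138 and 0.677). Across the 11 heifers, the relation of each within-heifer change to the mean red cell change was tested. None of the 6 had an adjusted permutation p under 0.05, which with 11 heifers does not show that a relation is absent. The 2 largest relations by Pearson were those of miR-30d and miR-30a-5p. For miR-30d the relation was at r = -0.569 by Pearson (p = 0.0702 from 100000 permutations, adjusted over 6 to 0.243) and rho = -0.591 by Spearman (permutation p = 0.0626, adjusted to 0.364), and r was -0.287 without heifers 14 and 17. For miR-30a-5p r was -0.553 (permutation p = 0.0810, adjusted p = 0.243) and rho was -0.445 (permutation p = 0.176, adjusted p = 0.364), with r at -0.165 without the same heifers. For miR-30b-5p r was -0.0783 (permutation p = 0.820, adjusted p = 0.820) and rho was -0.291 (permutation p = 0.386, adjusted p = 0.463), with r at -0.315 without the same heifers. For miR-30e-5p r was 0.144 (permutation p = 0.682, adjusted p = 0.820) and rho was 0.0636 (permutation p = 0.860, adjusted p = 0.860), with r at -0.0157 without them. The part of the leukocyte miRNAs in these results was not tested.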

How the data were processed

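Per the labels and the study's methods, plasma RNA was made into TruSeq small RNA libraries and sequenced as single-end reads. The authors assigned reads with sRNAbench on bosTau4 and miRBase (Bowtie 0.12.9 in the submitters' processing notes), with 1 mismatch allowed, and deposited raw read counts per mature miRNA. The second table, the same reads scaled separately for bovine and human rows, was not used here. Libraries were grouped by day and paired by heifer, the same animal. Deviations from day means correlated at a mean of 0.141 within heifers and -0.0062 between heifers. Members and lists were chosen with earlier results of these data known.

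The main test was edgeR 4.0.16 (R 4.3.3), quasi-likelihood, with TMM, heifer as a block and a minimum level (over 25 RPMM in over 8 libraries of at least 1 day). Ratios used 0.5 read added and 2048 sign patterns, and correlations 100000 permutations. The 6 members were named in full, with miR-30b-3p, miR-128, the red cell miRNAs and the 3 most alike non-members of each. Sequences were not used here, so miRNAs of the same seed outside the family were not looked for.

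Alternatives were other scalings, filters and rows, limma-voom (limma 3.58.1), DESeq2 1.42.0, likelihood ratio tests, no block, a red cell covariate and each heifer left out. In simulated counts for Day 60 against Day 0 over 195 miRNAs, 31% of miRNAs changed 1.5-fold, 85% changed 2-fold and 97% changed 4-fold were called, and 0.645% of unchanged ones. Fewer miRNAs were changed in the simulation than were called in the data, as many up as down. They were drawn at random from all tested miRNAs, so these rates are not those of the miR-30 members. Other computing used scipy 1.17.1 and numpy 2.4.6 under Python 3.11.15, with plots from matplotlib 3.10.9 and tables from pandas 2.3.3. Wilson intervals cover counting error only.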

Additional observations from a re-analysis of the deposited data

How the results depend on the processing

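The number of members higher on Day 60 was 2 with edgeR and TMM, 1 with the upper quartile and 0 with library totals, without a filter (edgeR FDR 0.0540 for miR-30b-5p and 0.0526 for miR-30e-5p) and with the red cell covariate, and 3 with DESeq2, with scaling to miR-128 and without the heifer block. It was 1 to 3 with 1 heifer left out, with miR-30e-5p past the threshold in 11 of these 11 fits and miR-30b-5p in 6. The number lower was 0 in all fits, edgeR, DESeq2 and limma-voom alike. miR-30a-5p was at 0.02 in log2, and its sign turned with library totals (-0.17), the upper quartile (-0.14), a minimum of 25 RPMM in all libraries (-0.049) and bovine rows only (-0.022), and it ran from -0.085 to 0.10 with 1 heifer left out. Without the replicate block, 3 members were higher, with miR-30c at 0.67 (edgeR FDR 0.0425). Of the 15 ratios, 0 passed with pairing, also with 1 read added, and 2 passed without the replicate block, miR-30b-5p and miR-30e-5p to miR-30f (permutation of day labels, adjusted p = 0.0235 and 0.0438). With 1 heifer left out 0 to 4 passed, 4 without heifer 32 and 1 without heifer 31, but without heifers 10, 11, 14, 17, 24, 26, 28 or 29 no pair of any miRNAs passed, so these fits say nothing about stability. The ratio of miR-30b-5p to miR-30c ran from -0.071 to 0.12 in log2 and that of miR-30c to miR-30e-5p from -0.11 to 0.18 with 1 heifer left out. The family share differed by 0.300 to 0.864 percentage points with 1 heifer left out, and by 0.583 over bovine reads. Depth limits miR-30f most, with 26 reads in the shallowest library. The causes of these shifts were not tested.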
